A study of Mus musculus with 8 samples.

Results

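The transcripts of 10 core circadian clock genes were examined for N6-methyladenosine (m6A) in mouse embryonic fibroblasts (MEFs) grown in full medium or starved of nutrients for 2 h. The members were the activators Clock and Arntl, the period repressors Per1, Per2 and Per3, the cryptochrome repressors Cry1 and Cry2, the REV-ERB repressors Nr1d1 and Nr1d2, and the output factor Dbp. The genes were picked with earlier results of these data known, and their peaks were taken by name, as every peak that the deposited lists assign to one of them. They held 27 of the 38705 m6A peaks, or 19 of 21168 regions once overlapping peaks of the 4 libraries were joined.

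All cells were wild type MEFs of the C57BL/6 strain, isolated from embryos 13.5 days post-coitum and used after 5 to 6 passages. Control cells were untreated, and starved cells received a nutrient-deprived medium for 2 h. MeRIP-seq pulls down methylated mRNA fragments with an m6A antibody (IP) and sequences them beside the unselected fragments (input), and each group had 2 IP and 2 input libraries. The study's supplement calls them biological replicates, and with 2 against 2 the exact permutation test cannot go below p = 0.333.

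The clock is a delayed feedback loop. CLOCK and BMAL1, the product of Arntl, bind together to E-box DNA and switch on the Per and Cry genes, whose proteins return to the nucleus and silence CLOCK and BMAL1. The same pair drives Nr1d1 and Nr1d2, nuclear receptors that repress Arntl, and Dbp, a PAR bZIP factor that carries the rhythm to output genes. Fibroblasts in culture hold this loop in each cell, though the cells drift apart in phase unless they are reset, and m6A is known to affect the processing, decay and translation of mRNAs, those of the clock among them.

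The m6A writer complex favours the letters GGAC, the adenosine being the one modified. These letters were found on the transcribed strand in 14 of the 19 clock gene regions, in 27 copies, and 9 of the copies continued as GGACT. The share over all regions was not computed. Within the 200 bp around the peak centre, 61.5% of placed clock gene peaks held GGAC, against 63.5% of all placed peaks. The stretches below are the GGAC nearest to the centre of a region with its neighbours on both sides, 28 nt each (GRCm38, transcribed strand, the motif in capitals). They cover the 6 regions that had a peak in both control and starved cells, and 1 region each of Per3, Cry1, Cry2 and Dbp, which had none of that kind. Arntl had no GGAC in its region.
Clock, 3′UTR, chr5:76216490-76216517, minus strand: aaatggtcatagGGACacagccaattct
Per1, coding, chr11:69109266-69109293, plus strand: ttcaagctctcaGGACtctgccatggag
Per2, coding, chr1:91423763-91423790, minus strand: ctggagccgcagGGACcctggggaccac
Per3, 3′UTR, chr4:151004443-151004470, minus strand: agtgctttttctGGACcgcagttctatt
Cry1, 3′UTR, chr10:85132129-85132156, minus strand: gaatgtcatataGGACaagtggtaattt
Cry2, coding, chr2:92413034-92413061, minus strand: catcattggcgtGGACtacccacggccc
Nr1d1, stop codon, chr11:98768217-98768244, minus strand: gtccttccgggtGGACgcccagtgaccc
Nr1d2, coding, chr14:18208071-18208098, minus strand: atgcaaaggaacGGACtgtcacctttct
Nr1d2, coding, chr14:18215047-18215074, minus strand: caacatctcagtGGACagtacaaaggga
Dbp, coding, chr7:45706790-45706817, plus strand: tttgcctttcggGGACgtggaatacgtg
The Per2 coding region and the Dbp region each held 4 copies, the most of any region. In Cry1 the motif lay 4 bp, and in Cry2 3 bp, from the centre of the peak. A match is a description of the letters and does not show which adenosine was methylated.

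Every one of the 10 clock genes had at least 1 peak, but 1 of them had one in each library. Over the 21875 coding genes of the annotation, silent genes included, 41.9% had a peak under their symbol in at least 1 library and 12.5% in all 4. Control replicates 1 and 2 held 9 and 5 clock gene peaks in 7 and 5 genes, and starved replicates 1 and 2 held 8 and 5 peaks in 6 and 3 genes. The groups overlapped on both counts. Control libraries averaged 7 ± 2.83 peaks (SD, n = 2) and starved libraries 6.5 ± 2.12, a difference of -0.50 (exact permutation, two-sided, p = 1). Genes with a peak averaged 6 ± 1.41 and 4.5 ± 2.12, a difference of -1.50 (exact permutation, two-sided, p = 0.667).

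Nr1d2 alone had a peak in all 4 libraries, which makes 1 of 10 members, against 29.2% of the 9779 genes with any peak. Clock, Per2 and Nr1d1 had peaks in 3 libraries, with none in starved replicate 2. Per1 had them in the replicate 1 libraries of both groups, and Per3 in control replicate 1 and starved replicate 2. Arntl, Cry1, Cry2 and Dbp had 1 peak each in 1 library. No member was marked in the starved pair alone, a pattern seen in 3.19% of genes, and none in the control pair alone, seen in 4.56%.

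**Figure D1:**
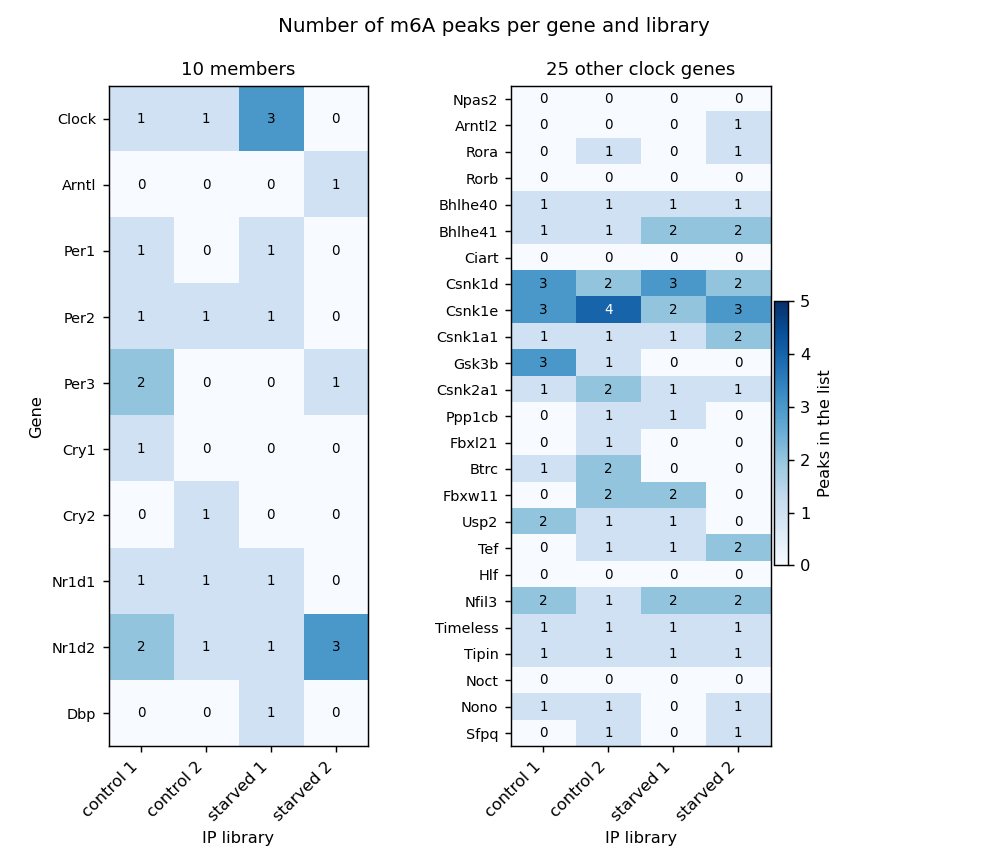
Number of m6A peaks per gene (rows) in each of the 4 IP libraries (columns), for the 10 members at left and 25 other clock genes at right; darker cells hold more peaks. Among the members the Nr1d2 row has no 0, while the Arntl, Cry1, Cry2 and Dbp rows have 1 peak each.

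At the level of regions, 13 of the 19 had a peak in 1 library (background 56.2% of all regions), 4 in 2 libraries, 2 in 3 libraries and none in all 4, where 10.7% of all regions stood. No clock gene region was seen in both starved libraries only (background 3.2%) or in both control libraries only (background 4.15%). Regions called in all 4 libraries had both starved values above both control values in 22.9% of cases and the reverse in 18%, and none of the members' regions could enter either count. The comparison of control with starved cells therefore rests on 6 regions with a peak in both groups, of which 2 had a peak in 3 libraries. The Clock region is among them only because its starved peak overlapped that of control replicate 2, not that of control replicate 1.

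The deposited fold enrichment of a peak, IP over local input, ran from 3.69 to 71.6 among the 27 clock gene peaks, with a median of 20.2 against 13.3 over all peaks. The median over clock gene peaks was 20.2 in control replicate 1, 26.8 in control replicate 2, 12.5 in starved replicate 1 and 20.7 in starved replicate 2, so the groups overlapped on the deposited scale. On the log2 scale these medians averaged 4.54 ± 0.29 in control and 4.01 ± 0.52 in starved cells (SD, n = 2), a difference of -0.54 (exact permutation, two-sided, p = 0.667). Over all peaks of each library the median was 12.2 and 12.3 in control and 14.6 and 14.7 in starved cells. Because that shift runs through the whole lists, each peak is also ranked below by its percentile within its own library, on which the clock gene median was 67.4 and 74.9 in control and 44.4 and 61.4 in starved cells. On that rank both controls stood above both starved libraries. With each fold divided by its library's median the log2 difference was -0.79 (exact permutation, two-sided, p = 0.333), the smallest p that this design allows. These medians are taken over different regions in each library. After that division the regions with a peak in both groups went both ways. Starved over control was 0.46 in Clock, 0.78 in Nr1d1 and 0.75 in exon 7 of Nr1d2. It was 2.01 in Per1, 1.29 in Per2 and 1.28 in exon 5 of Nr1d2.

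**Figure D2:**
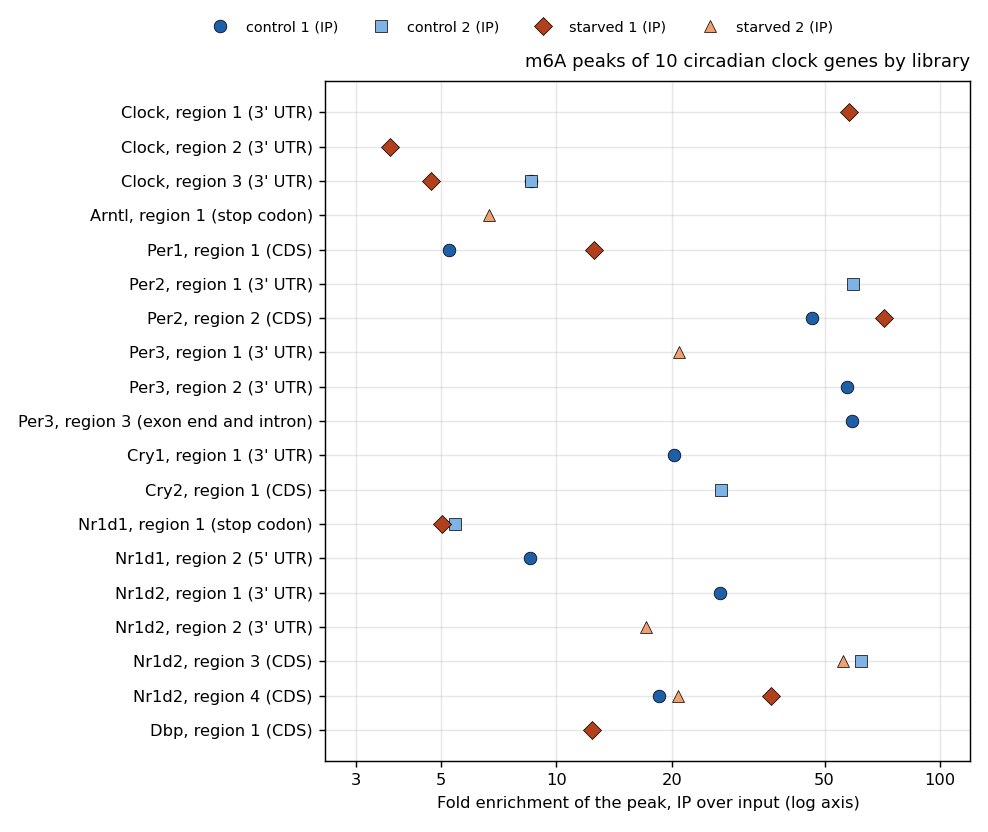
Fold enrichment (IP over input, log axis) of each clock gene peak, 1 row per region, with circles and squares for the control libraries and diamonds and triangles for the starved libraries. Most rows carry a single point; in Clock region 3 the points of both controls lie on each other at 8.57 and 8.60, and Nr1d2 region 4 is the row with points from both starved libraries.

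CLOCK is a histone acetyltransferase and the E-box binding partner of BMAL1. Its transcript (Entrez 12753, Clock-205) has a 3′UTR of 6831 nt, and all 5 Clock peaks were centred in the last exon, downstream of the coding sequence. The region nearest the stop codon, chr5:76216007-76216800, had a fold enrichment of 8.57 in control replicate 1, 8.60 in control replicate 2, 4.70 in starved replicate 1 and no peak in starved replicate 2. Both controls were higher than the starved library with a peak, and the ratio of starved to control was 0.547, or 0.460 after each fold was divided by its library's median. The peaks did not cover the same stretch: counted from the end of the coding sequence, they spanned 496 to 695 nt and 179 to 680 nt in the controls and -98 to 261 nt in the starved library, so that the starved peak did not overlap that of control replicate 1.

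Starved replicate 1 held the other Clock regions, both far into the 3′UTR. The one centred 6143 nt past the coding sequence, chr5:76210408-76210710, was 57.9-fold enriched with a score of 3100, the most frequent value in the lists. The one at 3216 nt, chr5:76213303-76213669, was 3.69-fold enriched and ranked at percentile 3.92 of its library, the lowest of any clock gene peak. Starved replicate 2 had no Clock peak, so these regions rest on 1 library. GGAC was sparse along the transcript, with 1.95 copies per kb, at percentile 11.6 of 21875 coding genes whose median was 4 per kb.

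Arntl (Entrez 11865) encodes BMAL1. It had a single peak of 6.67-fold at the stop codon, chr7:113313459-113313793, centred 10 nt past the coding sequence in starved replicate 2. The peak reached the percentile 21.9 of its library and held no GGAC, although the Arntl transcript was rich in the motif (6.90 copies per kb, percentile 90.3). The other 3 libraries had no Arntl peak.

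The PER proteins set the length of the cycle, and their amount in the nucleus times the repression of CLOCK and BMAL1. Their 3 transcripts held 8 peaks, 5 of them in the control libraries and 3 in the starved libraries. Per2 (Entrez 18627) carried the strongest peak listed under a member's name, in exon 19, the longest internal exon of the transcript at 797 nt. This region, chr1:91423690-91423917, was enriched 46.5-fold in control replicate 1 and 71.6-fold in starved replicate 1, and had no peak in either replicate 2 library. Starved was 1.54 times control, or 1.29 times after division by the library medians, and both peaks spanned the same 228 bp. A further Per2 peak of 59.2-fold lay in the 3′UTR, 260 nt past the coding sequence, at chr1:91417430-91417798, in control replicate 2.

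Per1 (Entrez 18626), an early response gene to signals that reset the clock, had 1 region in the coding part of its last exon, chr11:69109081-69109283, spanning -275 to -73 nt from the end of the coding sequence in the control library. Its fold enrichment was 5.24 in control replicate 1 and 12.6 in starved replicate 1. Again neither replicate 2 library had a peak, and the starved value was 2.40 times the control value, or 2.01 times after division by the library medians. Per1 and Per2 were thus both higher in the starved member of the replicate 1 libraries, a single comparison of 1 library with 1 library in which no spread can be given.

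Per3 (Entrez 18628) had 3 regions, each in 1 library. In the 3′UTR, control replicate 1 had 57.3-fold enrichment 331 nt past the coding sequence, at chr4:151005369-151005728. Also there, starved replicate 2 had 20.9-fold enrichment 1356 nt past the coding sequence, at chr4:151004363-151004684. Its remaining region, 58.8-fold in control replicate 1 at chr4:151012068-151012310, shared only 70 of its 243 bp with exon 17, the longest internal exon at 692 nt, and otherwise ran past the exon's end into the intron of Per3-201. It is the 1 clock gene peak whose centre could not be placed on the coding transcript, and the deposited list names another Per3 transcript for it.

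The CRY proteins repress CLOCK and BMAL1 directly, and each of their genes carried 1 peak. Cry1 (Entrez 12952) had 20.2-fold enrichment in the 3′UTR, 177 nt past the coding sequence, in control replicate 1, at chr10:85131970-85132307. Cry2 (Entrez 12953) had 26.8-fold enrichment over the whole of exon 9 in control replicate 2, at chr2:92412949-92413151, a coding exon of 203 nt. Neither gene had a peak under its own name in a starved library. However, starved replicate 1 listed a 74.5-fold peak at chr2:92426759-92426959 under the name mPHLL2, and 58 of its bases lay in exon 2 of Cry2. Counted with Cry2, that peak would be its highest and the highest of any member, so the lack of a starved Cry2 peak depends on the name in the list.

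The REV-ERB receptors bind haem and repress Arntl, and their transcripts were the most densely marked, with 10 peaks in 6 regions and 0.813 regions per kb. Nr1d2 (Entrez 353187) held 7 of the peaks, or 1.5 per kb of transcript, the highest of the 10 genes. Its region in exon 5, the longest internal exon at 620 nt, lay at chr14:18214936-18215490. It was enriched 18.5-fold in control replicate 1, 36.3-fold in starved replicate 1 and 20.7-fold in starved replicate 2, with no peak in control replicate 2. Both starved libraries stood above the control library with a peak, at a ratio of 1.54, and 1.28 after division by the library medians. After that division starved replicate 2, at 1.41 times its library's median, fell below control replicate 1 at 1.52, so that the order of the libraries changed.

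Exon 7 of Nr1d2, a coding exon of 211 nt at chr14:18207919-18208129, had 62.3-fold enrichment in control replicate 2 and 55.8-fold in starved replicate 2. The libraries of replicate 1 had no peak there. The starved peak covered the exon from end to end, the ratio of starved to control was 0.895, or 0.748 after division by the library medians, and both scores were at or above 3100. Nr1d2 also had 26.7-fold enrichment in the 3′UTR, 2409 nt past the coding sequence, in control replicate 1, at chr14:18204107-18204451. A peak of 17.1-fold lay 140 nt past the coding sequence in starved replicate 2, at chr14:18206215-18206881. Since different exons were marked in different libraries, the peak of Nr1d2 in every library was not a single site.

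Nr1d1 (Entrez 217166) was enriched less than Nr1d2. Its stop codon region, chr11:98767947-98768419, had a fold enrichment of 5.44 in control replicate 2 and 5.02 in starved replicate 1, a ratio of 0.923, or 0.777 after division by the library medians. Its 5′UTR had 8.53-fold enrichment in exon 1 in control replicate 1, at chr11:98775027-98775301, the only clock gene peak in a 5′UTR. The end of Nr1d1 overlaps an exon of Thra, the thyroid hormone receptor gene on the opposite strand, and the deposited peaks carry no strand, so the stop codon region cannot be given to 1 of the 2 genes with certainty.

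Dbp (Entrez 13170), the output factor, had 12.4-fold enrichment in exon 2, its longest internal exon at 411 nt, in starved replicate 1, at chr7:45706611-45706963. Its last exon was overlapped by a region in 3 libraries that the lists give to Sphk2, a sphingosine kinase gene on the opposite strand, whose last exon overlaps that of Dbp. These peaks had a fold enrichment of 40.7 in control replicate 1, 6.96 in control replicate 2 and 6.80 in starved replicate 2, and shared 271, 48 and 224 bp with the Dbp exon. With no strand in the lists, Dbp may hold 1 marked region or 2.

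**Figure D3:**
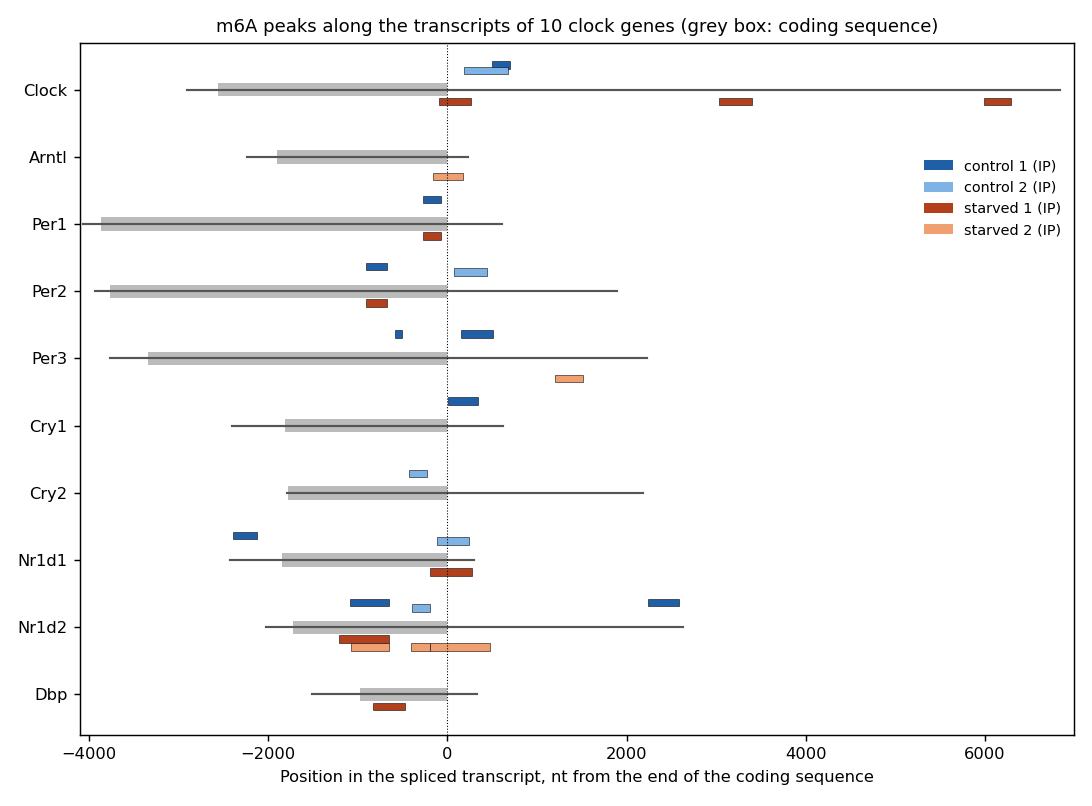
Positions of the 27 clock gene peaks along the spliced transcripts, in nt from the end of the coding sequence (dotted line), with the coding sequence as a grey box, control peaks above and starved peaks below each line. All Clock and Arntl peaks touch or follow the dotted line, while Per1, Per2, Cry2, Nr1d2 and Dbp have peaks inside the coding sequence. The Per3 bar at left also lies there and shows only the 70 bp that lie in an exon.

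The roles were then set side by side. The 6 activator peaks had a median of 7.62-fold and a median percentile of 29.0 within their libraries. The 20 repressor peaks had a median of 23.8-fold and a median percentile of 71.2, and the Dbp peak stood at percentile 44.1. Within control replicate 1 the median percentile was 36.8 for activators and 71.3 for repressors, and within control replicate 2 it was 36.0 and 82.5. Within starved replicate 1 it was 9.32 and 61.7, and within starved replicate 2 it was 21.9 and 61.6. The activator median was the lower in all 4 libraries, but single peaks overlapped in 3 of them, with percentiles from 3.92 to 87.8 for activators and from 11.1 to 91.1 for repressors. In addition, 3 libraries held a single activator peak, Clock supplied 5 of the 6, and the genes were chosen with these results known, so no test is given.

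Among the repressors, the PER median percentile was 88.6 (17.0 to 91.1), the CRY median 71.2 (67.4 to 74.9) and the REV-ERB median 63.1 (11.1 to 90.8), and these ranges overlapped. The CRY values leave out the peak named mPHLL2, which stood at percentile 91.8 of starved replicate 1. Per kb of transcript, activators held 0.328 regions, PER genes 0.364, CRY genes 0.286, Dbp 0.544 and REV-ERB genes 0.813. Activators had 1 peak in control replicate 1, 1 in control replicate 2, 3 in starved replicate 1 and 1 in starved replicate 2. Repressors had 8 and 4 in the controls and 4 and 4 in the starved libraries. Neither role's counts set the groups apart without overlap.

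**Figure D4:**
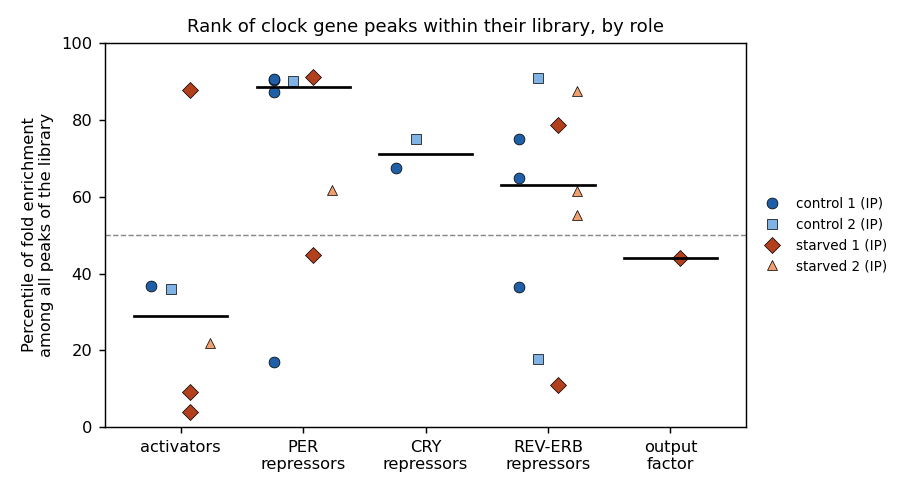
Percentile of each clock gene peak's fold enrichment among all peaks of its own library, by role (horizontal axis), with 1 symbol per peak, a bar at the median of each role and a dashed line at 50. The activator bar stands at 29.0 and the PER bar at 88.6, with 1 activator peak at 87.8 and 2 PER peaks below 50.

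Placed on the spliced transcript, 26 of the 27 clock gene peaks had a position. The coding sequence held 11, the 3′UTR 10, the window of 100 nt on each side of the stop codon 4, and the 5′UTR 1. Over all peaks the shares were 46.1%, 36.7%, 12.4% and 4.78% in that order. All 6 activator peaks lay at the stop codon or in the 3′UTR, against 8 of the 19 repressor peaks with a position, and 10 of the 11 coding peaks were in repressors and 1 in Dbp. Clock supplied 5 of the 6 activator peaks, and its 3′UTR takes 6831 of the 9744 nt of its transcript. Stop codon and 3′UTR together took 50% and 60% of the placed clock gene peaks in control replicates 1 and 2 and the same 50% and 60% in starved replicates 1 and 2. The groups averaged 55% ± 7.07 each (SD, n = 2), with a difference of 0 (exact permutation, two-sided, p = 1).

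The last exon held 16 of the 26 placed peaks (61.5%, against 60% of all placed peaks), the longest internal exon 6 (23.1% against 19.2%), other internal exons 3 and the first exon 1. Those 6 peaks were in exon 19 of Per2, exon 5 of Nr1d2 and exon 2 of Dbp, and an edge of the Per3 peak without a position lay in exon 17 of that gene, also its longest. An end of the peak fell on an end of the exon in 11 of the 26 (42.3%), against 47.7% of all peaks. GGAC stood within the 200 bp around the centre in 16 of the 26 (61.5%), against 63.5% of all peaks. By library the motif stood in 62.5% and 60% of clock gene peaks of control replicates 1 and 2, and in 62.5% and 60% of those of starved replicates 1 and 2, a difference of 0 between the group means of 61.2% ± 1.77 (SD, n = 2; exact permutation, two-sided, p = 1).

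The length of transcript under clock gene peaks was 2626 and 1633 bp in control replicates 1 and 2 and 2840 and 1956 bp in starved replicates 1 and 2. The groups overlapped, and the means of 2130 ± 702 and 2398 ± 625 bp (SD, n = 2) differed by 268.5 bp (exact permutation, two-sided, p = 0.667). The libraries numbered 1 held 17 clock gene peaks together and those numbered 2 held 10, over lists of 19860 and 18845 peaks. The count thus differed more between replicate numbers than between media. The replicate numbers were not taken as pairs, and an effect of them on this count was not tested.

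The other genes of the clock were read in the same way, from a list of 25 ordered by role. A peak was found for 20 of them, beside the 41.9% of coding genes. Of those 20, 9 had one in all 4 libraries, beside 1 of the 10 members and 29.2% of genes with any peak. The kinases that mark PER and CRY proteins for turnover, and the phosphatase that opposes them, all had peaks, 4 of the 6 in every library. Of the DEC repressors and CHRONO, Bhlhe40 and Bhlhe41 had peaks in every library and Ciart in none. Of the other activators and ROR receptors, which compete with the REV-ERBs, Arntl2 and Rora had a peak and Npas2 and Rorb had none. The 4 ubiquitin ligases and deubiquitinases all had a peak, but none of them in every library.

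These 25 genes held 45 regions, of which 4 had a peak in all 4 libraries and 23 in 1. In the 3′UTR of Csnk1d, casein kinase 1 delta, the region chr11:120961741-120963906 had a fold enrichment of 3.26 and 5.24 in control and 8.25 and 8.36 in starved cells. Both starved values stood above both control values, with a log2 difference of 1.01 (exact permutation, two-sided, p = 0.333), and this 1 of 4 compares with the background of 22.9%. The starved and control values overlapped in Bhlhe40, with 9.96 and 18.7 for the controls against 13.8 and 22.2, and in the repressor Nfil3, with 12.8 and 35.6 for the controls against 22.7 and 28.0. In Csnk1e, casein kinase 1 epsilon, the controls had 86.0 and 41.6 and the starved libraries 169 and 44.8, over a region whose centre lay outside the exons of its coding transcript.

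Among the same genes, 4 regions were called in both controls and neither starved library (background 4.15%) and 1 in the reverse pattern (background 3.2%). Usp2, a deubiquitinase, had 15.3- and 18.0-fold enrichment in its coding sequence, and Csnk1a1, casein kinase 1 alpha, 10.45- and 19.6-fold in its 5′UTR. Gsk3b, glycogen synthase kinase 3 beta, had 4.02 and 6.85, and Csnk1e 3.25 and 2.92 in its 3′UTR. In starved cells only, Csnk1a1 had 2.28 and 2.96 in a separate region. A missing peak may hold enrichment below the caller's threshold, and no level is given for it.

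The 4 lists held 8974 to 10103 peaks in 5839 to 6387 genes, and the depth behind them is unknown because they give no read counts. For the same reason less RNA of a clock gene and less methylation of it cannot be told apart where a peak is missing, nor can fewer cells of a type and less RNA per cell. The false discovery rate given for the clock gene peaks ran from 7.52% to 73.5%, and 17 of the 27 were under 20%. Of 8 fibroblast markers 6 had a peak, with Pdgfra and Pdgfrb in every library and Col1a1 and Vim in none. Of 8 markers of epithelial, immune and endothelial cells 2 had a peak, Krt18 in both controls at 10.9- and 24.2-fold and Cd68 in control replicate 2 at 2.61-fold, and their part in the results was not tested.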

How the data were processed

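MeRIP-seq was run on IP and input libraries of control and starved MEFs, 2 replicates each, 8 samples in all, grouped by their GEO titles. The study's methods state that purified mRNA was immunoprecipitated with an m6A antibody and sequenced as directional libraries. After trimming with Cutadapt, the authors mapped reads to mm10 (HISAT2 2.0.4 per the submitters' processing notes), called peaks for each IP library against its input with MACS2, and kept peaks overlapping mRNA exons. The columns of the lists are those of an earlier MACS, so the version is uncertain. The deposited fold enrichment is the authors' ratio of IP to local input. The deposited score is minus 10 times log10 of the p-value, with 3100 as its most frequent value. The false discovery rate is a percent computed by the authors. The lists give neither strand, summit nor read counts, so depth and its precision are unknown. A table of the authors' differential sites, holding their fold changes and p-values, was not used.

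Peaks were assigned by the gene name in the list and joined into regions by 1 bp of overlap. Each peak was placed by its centre on a coding transcript (GENCODE mouse release 21, GRCm38, the same build as mm10). Of the named gene's transcripts covering the centre, that with the longest coding sequence was taken. Where the named gene had none, a transcript of another gene was taken. The members' regions and maps used 1 coding transcript per gene. Distances past the coding sequence were counted from the last coding base before the stop codon. The stop codon window was 100 nt on each side, and GGAC was sought in 200 bp of spliced transcript around the centre, on the transcribed strand. Libraries were compared by a two-sided exact permutation of 4 libraries. All 10 members were named in every library, and of the other clock genes those with a region in all 4 libraries or in both libraries of 1 group only were given values. Exon class, peaks under other gene names and ratios over regions with peaks in both groups were added after the values were seen, as was the share of coding genes with a peak. Of the other clock genes 2 are not reported here. The members and gene lists were chosen with earlier results of these data known. Alternatives were a false discovery rate under 20%, at least 8-fold enrichment, equal numbers of peaks, assignment by exon overlap, overlap over 50% of the shorter peak, a 100 bp motif window, scaling by library medians, a replicate block and leaving out each library. The scripts (Python 3.11.15, pandas 2.3.3, numpy 2.4.6) were tested on simulated data, where 13 of 13 quantities over 4000 simulated regions were recovered.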

Additional observations from a re-analysis of the deposited data

How the results depend on the processing

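With 2 libraries per group no exact test could pass 0.05, so only directions and sizes bear on stability, and depth was not recorded. Of 94 recomputed values 60 kept their direction (or, for counts, lay within 1.5 times), whatever their size, 29 moved and 5 reversed. Those 60 include counts of 0 that stayed 0, and the replicate block, which leaves each difference unchanged by construction. Such entries say little about stability. The length under clock gene peaks, 268.5 bp more in starved libraries, was -218 bp with peaks of at least 8-fold enrichment and 6.5 bp with 8974 peaks per library. Under a false discovery rate of 20%, at least 8-fold enrichment and equal numbers, the log2 fold difference shrank to -0.23, -0.21 and -0.16, and the differences were -0.5, -1.5 and -1 peaks and -0.5, -1.5 and -1 genes. The difference in the stop codon and 3′UTR share, 0 as reported, became -9.17 points with a false discovery rate under 20%, -18.6 with at least 8-fold, -11.9 with 8974 peaks per library and -2.78 with assignment by exon overlap. The difference in the GGAC share, also 0, became 9.17, 13.9, 4.76 and -4.86 points under the same settings, and -10 with a 100 bp window. The count of regions in both controls only, 0 as reported, was 1 with at least 8-fold, with equal numbers of peaks and with overlap over 50% of the shorter peak. Only the Clock region had a peak in both controls, so it is the region counted there, and it then leaves the regions with a peak in both groups. Dividing by library medians made the log2 fold difference -0.79 (exact permutation, p = 0.333). Leaving out each library gave differences of -2.5 to 1.5 peaks, with 1.5 without control replicate 1 and 1 without starved replicate 2, both reversed. It gave -3 to 0 genes (0 without starved replicate 2), -0.90 to -0.17 in log2 fold, -228 to 765 bp (-228 without control replicate 2 and -173.5 without starved replicate 1), and -5 to 5 and -1.25 to 1.25 points in the shares. Starved-only regions numbered 0 to 3 (3 without either starved library, 1 without control replicate 1), and control-only regions 0 to 6 (6 without control replicate 2, 2 without control replicate 1, 1 without starved replicate 1). Regions with starved above control in every library left numbered 0 to 1 (1 without control replicate 2), and those with control above 0 to 1 (1 without starved replicate 2). With the replicate block the differences were the same, -0.5 peaks, -1.5 genes, -0.54 log2, 268.5 bp, 0 and 0 points, with p = 1, 0.5, 0.5, 0.5, 1 and 1 by exact sign flips, where 0.5 is the smallest possible. Same-numbered libraries did not deviate together in fold (r = -0.02 over the 2257 regions called in all 4 libraries, 2 pairs), so the numbers were not taken as pairs. No clock gene region was among those regions, and the check does not bear on whether a peak was called. The alternative of placing peaks by their summit was not run, since the lists hold no summit, and assignment by exon overlap ignored strand for the same reason. The causes of these shifts were not tested.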
